A study of Aspergillus nidulans with 12 samples.

Results

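The dba genes are a run of biosynthetic genes of the mould Aspergillus nidulans, and they were taken here by identifier as AN7894 to AN7903. These 10 genes were all found in the count table, out of 10681 genes, and all 10 passed the filter on low counts. The reference gene order places them on chromosome II. Fungal polyketide clusters keep the synthase, the enzymes that finish its product, a transporter and a dedicated transcription factor next to each other, and such clusters are often silent in ordinary culture. The dba cluster makes a substituted benzaldehyde, with dbaI (AN7903) as its non-reducing polyketide synthase, and it became known through strains that lack a subunit of the COP9 signalosome, a complex that acts on ubiquitin ligases. The files name no gene of the cluster other than by identifier, so the names and roles used below for members apart from dbaI come from general knowledge of A. nidulans.

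RNA was selected on its poly(A) tail and sequenced from 12 libraries in 6 groups, with 2 duplicate cultures each. A strain labelled delta_rimO (rimO deletion) was harvested at 17 h and 54 h, a strain labelled OE_rimO (rimO overexpression) at 17 h and 48 h, and the strain A1153, labelled wild type, at 17 h and 48 h. All grew at 37 °C in shaken liquid medium with 50 mM glucose and 10 mM nitrate. The labels tie 17 h to primary metabolism and the later hour to secondary metabolism. They describe slower glucose uptake in the deletion strain and a late harvest set 8 h after glucose had run out, so strain and late harvest hour cannot be told apart for the deletion. Each mutant genotype carries 1 strain code, and the promoter that drives rimO in OE_rimO and any further markers of the strains are not given in the sources used here. As the cultures are bulk samples, more cells expressing a gene and more RNA per cell cannot be told apart.

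Libraries held 9269951 to 17891416 counts. Levels are in CPM, the count relative to the scaled library size. AN7572, taken for rimO from general knowledge, had early levels of 60.5 and 67.4 CPM in the libraries labelled deletion, 588 and 504 CPM in those labelled overexpression and 99.8 and 109 CPM in wild type. Its late levels were 51.6 and 48.4 CPM in libraries labelled deletion, 322 and 357 CPM in libraries labelled overexpression and 447 and 437 CPM in wild type. Reads thus remained in the libraries labelled deletion, and the 48 h libraries labelled overexpression lay below wild type, so the strains are called by their labels. A gene was called higher or lower at a Benjamini-Hochberg adjusted p under 0.05 in edgeR's quasi-likelihood test over all 9670 tested genes. Changes are log2 fold changes with their SE. The p-values set each change against the spread between duplicate cultures, estimated over all 12 libraries with information shared between genes.

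The late deletion cultures held almost all of the dba transcript in the data. The 10 genes summed to 8835 and 8517 CPM in the deletion strain at 54 h, to 4.59 and 5.32 CPM in the overexpression strain at 48 h and to 36.3 and 18.1 CPM in wild type at 48 h. At 17 h the sums were 33.8 and 18.9 CPM in the deletion strain, 35.8 and 39.2 CPM in the overexpression strain and 27.5 and 23.2 CPM in wild type. The late deletion cultures were the highest group and the late overexpression cultures the lowest, neither overlapping any other group. The other 4 groups lay between 18.1 and 39.2 CPM; their ranges met, except that overexpression at 17 h lay above the deletion strain and wild type at 17 h. As a share of all counts, the cluster took 0.957% (95% exact binomial interval 0.953 to 0.962%) and 0.898% (0.894 to 0.903%) in the late deletion cultures, against 0.00406% (0.00375 to 0.00439%) and 0.00209% (0.00186 to 0.00233%) in wild type at 48 h. The intervals cover counting error only, and the 2 wild-type cultures differed by more than that.

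**Figure D1:**
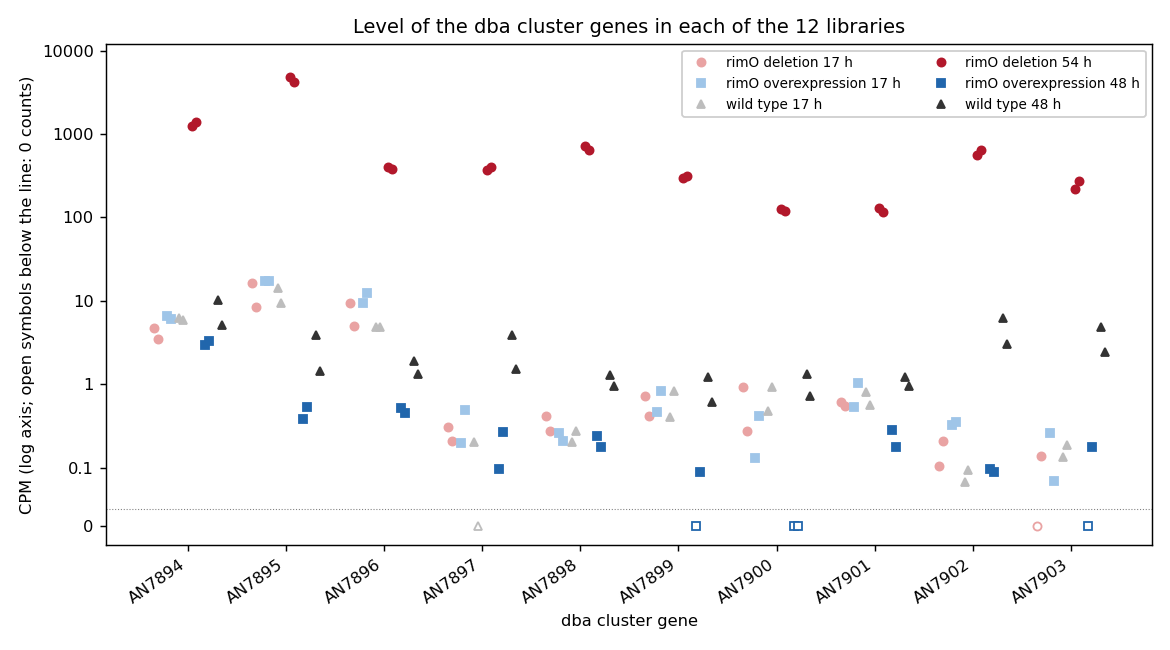
Level of each dba gene in each library, in CPM on a log axis, with 1 point per culture; libraries with no count are drawn at the position marked 0 on the axis. All 10 genes stood highest in both deletion cultures at 54 h, between 115 CPM (AN7901) and 4760 CPM (AN7895).

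At the late harvest all 10 of 10 dba genes were higher in the deletion strain than in wild type, where 40.2% of all tested genes were called higher. Their median log2 change was 7.29, against -0.01 over all tested genes, and the smallest belonged to the synthase gene AN7903 (6.08) and the largest to AN7895 (10.72). With each library left out in turn, all 10 stayed called. The same late harvest in the overexpression strain showed all 10 genes lower than in wild type, where 18.1% of tested genes were called lower, with a median log2 change of -3.31, or -3.01 with AN7900, which had no count, at its bound. The comparisons with wild type share the wild-type cultures.

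AN7903, the polyketide synthase gene dbaI, makes the carbon skeleton of the product. It stood at 218 and 275 CPM in the deletion cultures at 54 h, at 0 and 0.18 CPM in the overexpression cultures at 48 h and at 4.87 and 2.41 CPM in wild type at 48 h. The groups did not overlap, and the deletion cultures averaged 246 ± 40.2 CPM against 3.64 ± 1.74 CPM in wild type (SD, n = 2 each). The log2 change was 6.08 ± 0.23 in the deletion strain (adjusted p = 7.39e-12, edgeR), a 67.7-fold difference. The late overexpression cultures held 2 counts of AN7903 together, against 127 in wild type at 48 h, which made it 57.9-fold lower (95% counting interval 15.7 to 483). Both counts lay in replicate 2. The fitted log2 change of -5.68 was -4.27 without overexpression replicate 1 at 48 h, -5.09 without wild-type replicate 1 at 48 h and -8.80 without overexpression replicate 2, where no count is left and the fitted value is no bound.

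AN7896 corresponds to dbaA, a zinc-cluster transcription factor of the cluster. Its levels were 399 and 386 CPM in the deletion strain at 54 h, 0.526 and 0.451 CPM in the overexpression strain at 48 h and 1.91 and 1.34 CPM in wild type at 48 h. The deletion cultures were close to each other and far above both other strains, with a log2 change of 7.91 ± 0.21 against wild type (adjusted p = 2.41e-13, edgeR). In the overexpression strain AN7896 fell by 1.68 ± 0.48 on the log2 scale (adjusted p = 0.0127, edgeR). That call did not hold without overexpression replicate 1 at 48 h (adjusted p = 0.0824) or without wild-type replicate 1 at 48 h (adjusted p = 0.0893).

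Of the enzymes that modify the polyketide, AN7902 (dbaH, a flavin-dependent monooxygenase) stood at 561 and 647 CPM in the deletion strain at 54 h, at 0.0957 and 0.0902 CPM in the overexpression strain at 48 h and at 6.26 and 3.08 CPM in wild type at 48 h. It was higher in the deletion strain by 7.02 ± 0.19 (adjusted p = 2.37e-13, edgeR). In the overexpression strain its 3 counts, against 163 in wild type, made it 49.5-fold lower (counting interval 16.6 to 243). Its fitted log2 change of -5.51 was -4.92 without wild-type replicate 1 at 48 h. In late wild type AN7902 took 17.3 and 17% of the cluster's counts, second to AN7894.

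AN7899 (dbaE, an esterase-type protein) stood at 298 and 315 CPM in the deletion strain at 54 h, at 0 and 0.0902 CPM in the overexpression strain at 48 h and at 1.22 and 0.616 CPM in wild type at 48 h. AN7900 (dbaF, an oxidoreductase) had 125 and 118 CPM in the late deletion cultures, no count in either late overexpression culture and 1.33 and 0.728 CPM in late wild type. Both were clear of wild type in the deletion cultures, by 8.38 ± 0.19 and 6.88 ± 0.23 on the log2 scale. AN7899 had 1 count in the late overexpression cultures and was 29.2-fold lower than in wild type (counting interval 4.87 to 1188). Its fitted log2 change of -4.54 was -3.22 without overexpression replicate 1 at 48 h and -6.82 without replicate 2, which held the only count. AN7900, set at 3 counts over the group, was at least 10.9-fold lower.

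AN7898 (dbaD, a transporter-type protein) had the smallest error of the members in the late deletion comparison. It reached 726 and 640 CPM in the deletion strain at 54 h, 0.239 and 0.18 CPM in the overexpression strain at 48 h and 1.28 and 0.952 CPM in wild type at 48 h. It was higher in the deletion strain by 9.25 ± 0.14 (adjusted p = 2.22e-15, edgeR) and lower in the overexpression strain by a log2 change of -2.30 ± 0.39 (adjusted p = 0.000283, edgeR).

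AN7894 and AN7895 lie at the start of the run and were the most abundant members in late deletion cultures. AN7895 stood at 4760 and 4231 CPM in the deletion strain at 54 h, at 0.383 and 0.541 CPM in the overexpression strain at 48 h and at 3.89 and 1.46 CPM in wild type at 48 h. The 2 wild-type cultures were far apart for this gene, and the log2 change of 10.72 ± 0.36 (adjusted p = 2.58e-12, edgeR) became 11.47 without wild-type replicate 1 at 48 h and 10.07 without replicate 2. Its lower level in the overexpression strain, -2.57 ± 0.63 (adjusted p = 0.00509, edgeR), was no longer called without overexpression replicate 1 at 48 h (adjusted p = 0.0754) or without wild-type replicate 1 at 48 h (-1.70, adjusted p = 0.0776).

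AN7894 stood at 1245 and 1382 CPM in the deletion strain at 54 h, at 2.97 and 3.34 CPM in the overexpression strain at 48 h and at 10.3 and 5.1 CPM in wild type at 48 h. It was the member that overexpression cultures kept most of. Its change there was -1.30 ± 0.27 (adjusted p = 0.00159, edgeR), and -0.71 without wild-type replicate 1 at 48 h. In the deletion strain it was higher by 7.42 ± 0.21 (adjusted p = 5.18e-13, edgeR).

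AN7897 and AN7901 complete the run. AN7897 reached 371 and 407 CPM in the deletion strain at 54 h, 0.0957 and 0.271 CPM in the overexpression strain at 48 h and 3.94 and 1.51 CPM in wild type at 48 h. Its changes were 7.16 ± 0.23 in the deletion strain (7.88 and 6.52 without wild-type replicate 1 and replicate 2 at 48 h) and -4.04 ± 0.65 in the overexpression strain. The second rests on 5 counts, and it was -3.29 and -4.71 without overexpression replicate 1 and replicate 2 at 48 h and -3.20 without wild-type replicate 1 at 48 h. AN7901 reached 130 and 115 CPM in the deletion strain, 0.287 and 0.18 CPM in the overexpression strain and 1.22 and 0.952 CPM in wild type, with changes of 6.81 ± 0.17 in the deletion strain and -2.08 ± 0.44 in the overexpression strain. Neither gene overlapped between late groups.

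The 2 wild-type cultures at 48 h differed along the whole cluster. Replicate 1 was above replicate 2 for all 10 genes, by a ratio of 1.28 to 2.67 with a median of 2, while over all genes with at least 20 counts in the 2 cultures together that median ratio was 1.00. The deletion cultures at 54 h showed no such order, with replicate 1 higher for 5 of 10 genes and ratios of 0.793 to 1.14.

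**Figure D2:**
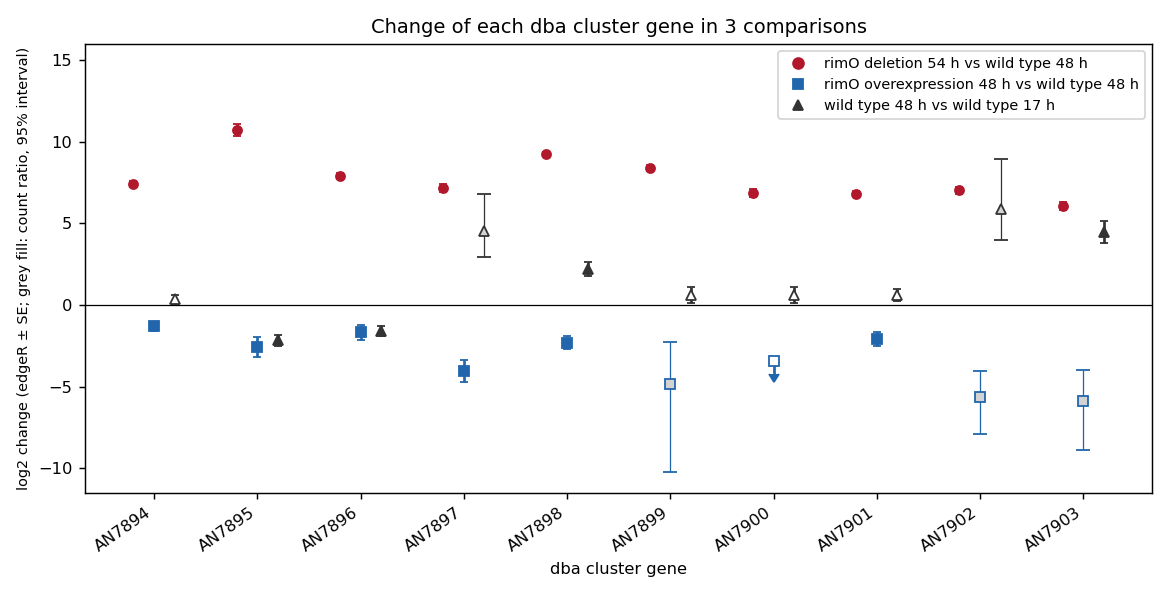
Log2 change of each dba gene in 3 comparisons, with bars of 1 SE; filled points were called at adjusted p under 0.05 and open points were not. Grey points are count ratios with their 95% counting interval, used where a group held 1 to 3 counts, and the open square with an arrow is the bound for AN7900, which had no count in late overexpression cultures. All 10 genes lie above 0 for the deletion strain at 54 h and below 0 for the overexpression strain at 48 h, each against wild type at 48 h, and they lie on both sides of 0 for wild type at 48 h against 17 h.

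At 17 h few dba genes were called between strains, near the shares over all tested genes. None of the 10 genes was called in the deletion strain against wild type, where 1.66% of tested genes were called in either direction. None had an unadjusted p under 0.05 either (lowest 0.0647, AN7894), and DESeq2 and limma-voom called 0 of 10. Changes lay between -0.86 and 1.03 with a median of -0.06. AN7897, AN7902 and AN7903 had 6, 4 and 2 counts in the deletion strain and 3, 2 and 4 in wild type. The counting intervals of their ratios were 0.452 to 13.1, 0.303 to 23.4 and 0.0478 to 3.69. With so few counts, the lack of a call cannot show that a difference was small. AN7894, AN7895 and AN7896, with at least 96 counts in each of these groups, changed by -0.6 ± 0.3, 0.01 ± 0.3 and 0.5 ± 0.25. AN7896 stood at 9.45 and 4.98 CPM in the deletion strain and 4.88 and 4.85 CPM in wild type at 17 h, and without deletion replicate 2 at 17 h its change of 0.95 was called (adjusted p = 0.0485, edgeR).

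In the overexpression strain at 17 h, 1 of 10 genes was called higher, where 15.1% of tested genes were, and no dba gene was called lower. That gene was the regulator AN7896, at 9.52 and 12.3 CPM against 4.88 and 4.85 CPM in wild type. Its log2 change was 1.16 ± 0.23 (adjusted p = 0.00143, edgeR), and 0.97 to 1.34 with 1 library left out. The synthase gene AN7903 stood at 0.264 and 0.07 CPM in the overexpression strain and at 0.136 and 0.187 CPM in wild type at 17 h, where the groups overlap.

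Between harvests, the deletion strain gained transcript of all 10 genes. Higher levels at 54 h than at 17 h were called for 10 of 10, where 41.3% of tested genes were called higher, with a median log2 change of 8.83. The smallest change was that of AN7896 (5.83 ± 0.18), which already had 163 counts at 17 h. That of AN7900 (7.79 ± 0.27) was 8.73 and 7.01 without deletion replicate 1 and replicate 2 at 17 h. AN7903 had 2 counts in the 17 h cultures together and 8395 at 54 h, a 2946-fold difference with a counting interval of 815 to 24328. Both early counts lay in replicate 2, and the fitted log2 change of 11.40 was 10.71 without deletion replicate 1 at 17 h and 14.85 without replicate 2. That of AN7902, 11.76, was 12.40 without deletion replicate 2 at 17 h.

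In wild type the dba genes moved in both directions between harvests, as did the tested genes as a whole. At 48 h against 17 h, 4 of 10 genes were higher, where 40.3% of tested genes were, and 2 of 10 were lower, where 43.0% were. The synthase gene AN7903 was higher, at 4.87 and 2.41 CPM late against 0.136 and 0.187 CPM early (log2 change 4.46 ± 0.66, adjusted p = 1.87e-05, edgeR), as was AN7898 (2.20 ± 0.41, adjusted p = 0.000161). AN7902, with 2 counts at 17 h, was 59.1-fold higher (counting interval 16.1 to 493) and AN7897, with 3 counts, 23.0-fold higher (7.63 to 113). The fitted log2 change of AN7897, 4.43, was 3.68 without wild-type replicate 2 at 17 h, 3.71 and 5.07 without wild-type replicate 1 and replicate 2 at 48 h, and 8.36 without wild-type replicate 1 at 17 h, which held all 3 early counts. The regulator AN7896 fell by 1.58 ± 0.31 on the log2 scale (adjusted p = 0.000241, edgeR), at 1.91 and 1.34 CPM late against 4.88 and 4.85 CPM early. AN7895 fell by 2.17 ± 0.35 (adjusted p = 4.92e-05, edgeR), and by 2.91 and 1.51 without wild-type replicate 1 and replicate 2 at 48 h. Without replicate 2 at 48 h, AN7894 (0.87, adjusted p = 0.000231) and AN7899 (1.14, adjusted p = 0.0411) were called higher as well.

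In the overexpression strain at 48 h against 17 h, 6 of 10 genes were lower, where 43.6% of tested genes were. AN7895 had late levels of 0.383 and 0.541 CPM and early levels of 17.4 and 17.4 CPM, a log2 change of -5.28 ± 0.48 (adjusted p = 9.77e-08, edgeR). AN7896 changed by -4.42 ± 0.34 (adjusted p = 1.4e-08, edgeR), AN7894 by -1.04 ± 0.29 and AN7901 by -1.61 ± 0.49. AN7899, with 1 count at 48 h, was 20.7-fold lower (counting interval 3.28 to 858; fitted log2 change -4.05, and -2.73 and -6.33 without overexpression replicate 1 and replicate 2 at 48 h), and AN7900 was at least 2.9-fold lower. The synthase gene, AN7897, AN7898 and AN7902 were not called, each with at most 10 counts in either group. With only the 4 libraries compared, 3 genes were called, and leaving out overexpression replicate 2 at 17 h ended the calls of AN7900 (adjusted p = 0.103) and AN7901 (0.163), that of AN7900 also without overexpression replicate 1 at 48 h (0.0952).

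The late-minus-early change was then set against that of wild type. It was larger in the deletion strain for 10 of 10 genes, where 34.0% of tested genes were called so, and smaller in the overexpression strain for 9 of 10, where 15.9% were. AN7898 was the exception in the overexpression strain, at -2.32 ± 0.74 (adjusted p = 0.0558, edgeR). For AN7894, AN7895 and AN7896, which had at least 14 counts in every group, the difference from wild type was 8.01 ± 0.37, 10.71 ± 0.45 and 7.41 ± 0.37 in the deletion strain. It was -1.37 ± 0.38, -3.11 ± 0.70 and -2.84 ± 0.53 in the overexpression strain.

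The makeup of the cluster's transcript differed between groups as well. AN7894, AN7895 and AN7896 together took 87.5 to 93.9% of the cluster's counts in the 6 libraries of 17 h. They took 72.5 and 70.4% in the deletion strain at 54 h, 84.4 and 81.4% in the overexpression strain at 48 h and 44.5 and 43.5% in wild type at 48 h. AN7895 alone took 53.9 and 49.7% in the late deletion cultures, 8.33 and 10.2% in the late overexpression cultures and 10.7 and 8.02% in late wild type. In late overexpression cultures AN7894 took 64.6 and 62.7%. The cultures of a group lay close to each other in these shares, though the late overexpression cultures rest on 96 and 59 counts for the whole cluster.

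**Figure D3:**
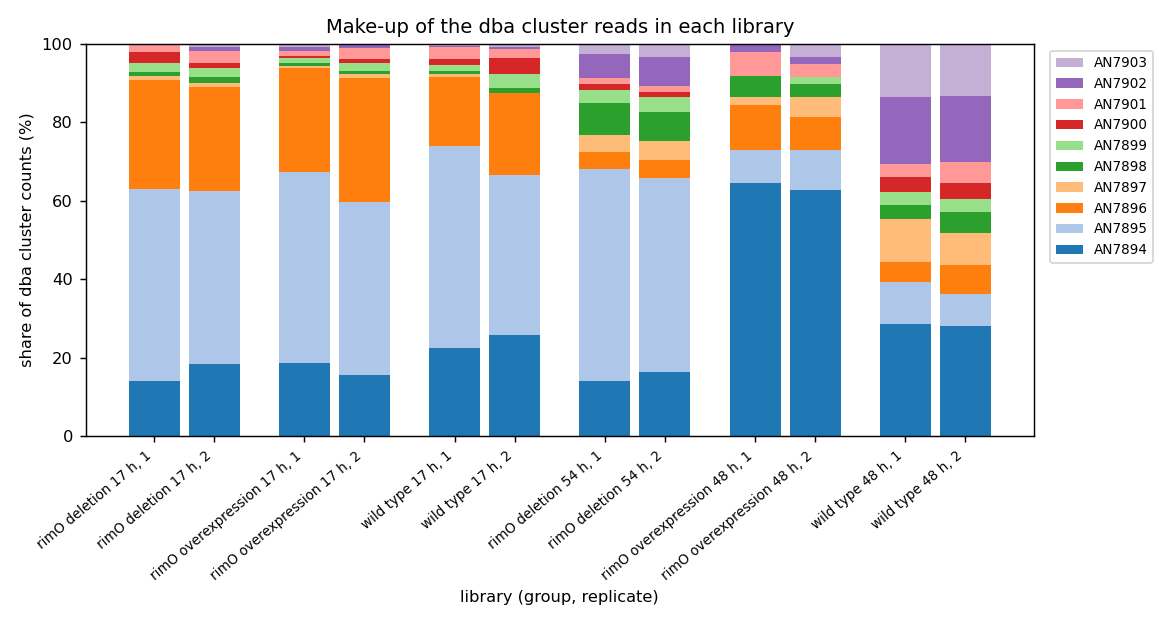
Share of the dba cluster's counts taken by each member, in percent, with 1 bar per library. In wild type at 48 h AN7894 to AN7896 took 44.5 and 43.5%, against 72.5 and 70.4% in the deletion strain at 54 h and 87.5 to 93.9% in the libraries of 17 h.

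The authors' deposited table of log2 RPKM, which corrects for gene length and gives 1 value per group without a spread, was used to rank the members against each other. In late deletion cultures the authors' deposited table lists AN7895 at 11.74, which is rank 15 of all genes, and AN7894 at 10.57, which is rank 62. AN7898 and AN7902 follow in the authors' deposited table at 9.08 and 8.98, AN7897 at 8.47, AN7899 at 8.03, AN7896 at 7.61, AN7900 at 6.42 and AN7901 at 6.22. The synthase gene AN7903 is last in the authors' deposited table at 5.0, rank 3360, and it is by far the longest member, with a length of about 7.7 kb implied by the ratio of counts to RPKM against 0.86 to 2 kb for the others. In wild type at 48 h the authors' deposited table puts AN7894 first (2.57), AN7902 next (1.23) and AN7903 last (-1.48), with AN7895 at 0.69. Steps between neighbours in the late deletion order were 0.1 to 1.5 log2 units in the authors' deposited table, and without a spread the neighbours cannot be told apart by a test.

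Along the chromosome the change broke off after AN7903, while all 8 tested genes of the 10 before AN7894 were also higher in late deletion cultures. Chosen after their values were seen, AN11584 between AN7897 and AN7898 and AN7893 just before AN7894 moved with the members. AN11584 stood at 825 and 977 CPM in the deletion strain at 54 h, at 0.0479 and 0 CPM in the overexpression strain at 48 h and at 5.92 and 2.97 CPM in wild type at 48 h, a log2 change of 7.67 ± 0.20 in the deletion strain (adjusted p = 1.98e-13, edgeR). AN7893 had 855 and 981 CPM in the late deletion cultures, 0.144 and 0.0902 CPM in late overexpression cultures and 7.08 and 4.26 CPM in late wild type, with changes of 7.34 ± 0.18 in the deletion strain and -5.41 ± 0.48 in the overexpression strain. On the other side, AN7904 stood at 4.61 and 7.55 CPM in the deletion strain at 54 h, at 8.09 and 6.94 CPM in the overexpression strain at 48 h and at 9.22 and 9.58 CPM in wild type at 48 h. Its change in the deletion strain was -0.64 ± 0.22 (adjusted p = 0.0168, edgeR), and adjusted p = 0.218 without deletion replicate 1 at 54 h. The run of higher genes was thus broken at AN7904, but higher genes lay further on. AN7913 (1.35), AN7914 and AN7915 were called higher in the deletion strain at 54 h. AN7915 averaged 95.4 CPM there and had no count in wild type or the overexpression strain at 48 h.

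The genes before and after the cluster differed. Of the 10 genes before AN7894, 8 were tested and all 8 were higher in the deletion strain at 54 h than in wild type at 48 h. Over all tested genes 40.2% were called higher and 39.8% lower. The median log2 change of the 8 genes was 6.8, and the smallest was that of AN7889 (0.95). AN7891 averaged 82.1 CPM in late deletion cultures, 0.0451 CPM in late overexpression cultures and 0.028 CPM in late wild type. AN7892, the second gene before the cluster, had 1252 and 1473 CPM in the deletion strain, 10.0 and 7.67 CPM in the overexpression strain and 50.2 and 38.9 CPM in wild type at the late harvest (4.93 ± 0.24, adjusted p = 1.08e-10, edgeR). Unlike the members, it was already at 1972 and 2089 CPM in wild type at 17 h. Between harvests in wild type, 4 of the 8 genes before the cluster fell, 1 rose and 3 were not called. There AN7891 went from a mean of 10.2 CPM to 0.028 CPM. In the deletion strain 6 of the 8 rose between harvests and 2 were not called, and their median change was 1.19, against 8.83 for the members. Late overexpression cultures had 1 of the 8 above late wild type, 2 below it and 5 not called. Of the 9 genes after AN7903, 8 were tested, and 1 was higher, 5 were lower and 2 were not called. The orsellinic acid cluster overlaps these 9 genes, which hold 4 of its 5 genes. Of its 5 genes, 2 were higher and 2 lower in the deletion strain, near the shares over all tested genes. Its synthase gene AN7909 (orsA) was lower by a log2 change of -2.61 ± 0.20, while AN7914 was higher by 2.35 ± 0.22.

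**Figure D4:**
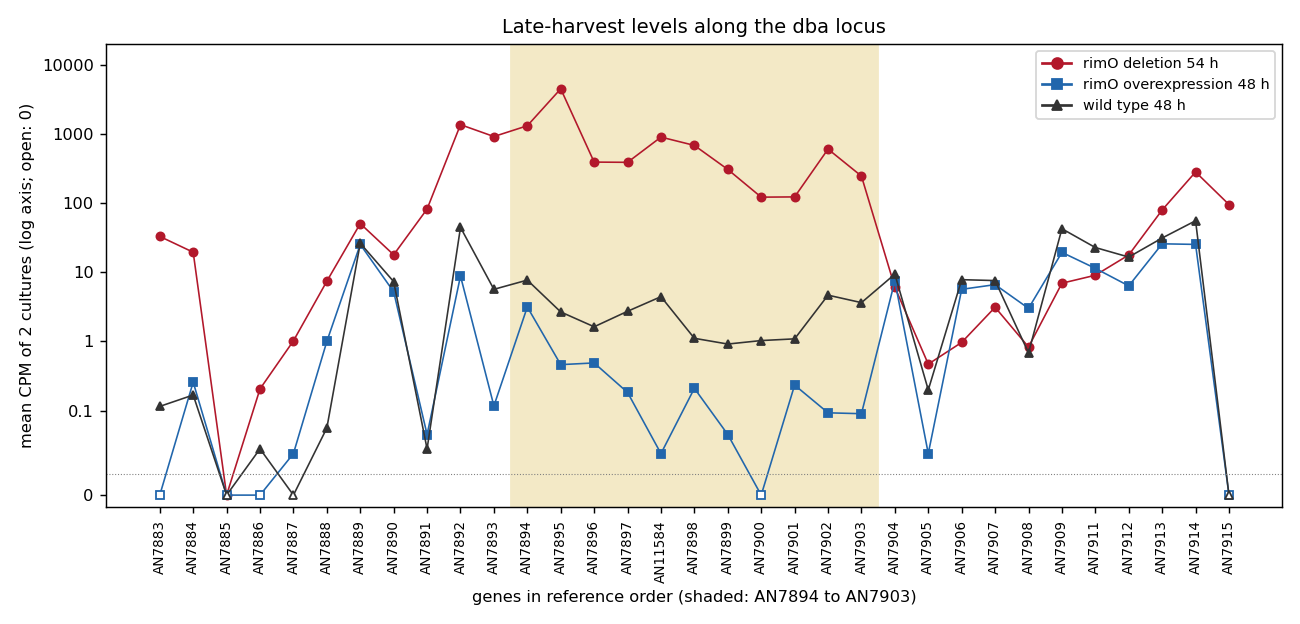
Mean CPM of each gene in gene order along the chromosome, from the genes before AN7894 to those after AN7903, in the late groups, on a log axis with groups without a count at the position marked 0. From AN7893 to AN7903 the deletion strain at 54 h stands far above wild type at 48 h and the overexpression strain at 48 h below it, and at AN7904 the 3 strains are at 6.08, 7.52 and 9.4 CPM.

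Listed genes of precursor supply and regulation showed smaller changes than the members. Of 5 genes of precursor supply and synthase activation, 2 were higher in the deletion strain at 54 h than in wild type at 48 h, AN6126 (0.88 ± 0.11) and the ATP citrate lyase gene aclA (AN2435, 0.59 ± 0.10), and AN5626 was lower (-0.34 ± 0.09), beside 40.2% higher and 39.8% lower over all tested genes. Of 15 regulators of secondary metabolism and chromatin, 4 were higher and 3 lower, with the largest changes in rsmA (AN4562, 0.76 ± 0.11) and the velvet gene velB (AN0363, 0.65 ± 0.09) and with laeA (AN0807) lower (-0.46 ± 0.09). Both shares of the regulators lie below those over all tested genes. The COP9 signalosome list held only the 3 genes whose reference symbol starts with csn, so it cannot speak for the whole complex. Of these, csnE (AN2129) was higher, at 37.6 and 35.1 CPM in the deletion strain and 27.5 and 27.5 CPM in wild type (0.40 ± 0.09, adjusted p = 0.000957, edgeR). The gene csnD (AN1539) was lower (-0.18 ± 0.08, adjusted p = 0.0387 with edgeR and 0.062 with DESeq2), and csn12 (AN0434) was not called. In the overexpression strain at 48 h, 4 of the 5 precursor genes and 5 of the 15 regulators were higher than in wild type, and 2 regulators were lower. The 3 listed csn genes were higher too, where 23.0% of tested genes were. The largest of these changes was that of laeA, at 1.27 ± 0.08.

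Other polyketide synthase genes moved in both directions. Of 18 listed, 13 were tested, and 4 were higher and 9 lower in the deletion strain at 54 h, with a median log2 change of -1.96. Over all tested genes 40.2% were called higher and 39.8% lower. The largest fall was that of stcA (AN7825, -10.56 ± 0.27), the synthase gene of the sterigmatocystin cluster, and AN8412 (6.41 ± 0.45) and AN2032 were among the higher ones. AN2032 had no count in wild type at 48 h and 30 in the deletion cultures, which made it at least 10.2-fold higher. In the overexpression strain at 48 h, 1 was higher and 5 were lower, where 23.0% and 18.1% of tested genes were.

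Over the 12 libraries the members followed one another. The correlation of log2 CPM between pairs of members was 0.738 to 0.994 with a median of 0.934 (45 pairs), and each member correlated with the mean of the members at 0.912 (AN7896) to 0.995 (AN7901). These values describe libraries that share strain, harvest and depth, and the late deletion cultures set most of them. The 5 other genes whose pattern was most like that mean were AN6527 (r = 0.9968), AN8366 (0.9943), fbx15 (AN2505, 0.9885), AN0628 (0.9884) and AN3998 (0.9851), and 98 genes outside the cluster reached 0.95 (193 with a prior count of 5). AN8366 had the range of a member, with 4176 and 3850 CPM in the deletion strain at 54 h, 0.0479 and 0.0902 CPM in the overexpression strain at 48 h and 1.22 and 1.4 CPM in wild type at 48 h. The others had a like order over a smaller range, such as AN6527 with 270.0 and 276 CPM in late deletion cultures, 16.5 and 15.5 CPM in late overexpression cultures and 33.5 and 28.6 CPM in late wild type.

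Markers of development moved with the late groups too. The summed level of 7 conidiation genes was 16.6 and 18 CPM in the deletion strain at 54 h, 3907 and 3915 CPM in the overexpression strain at 48 h and 1002 and 1566 CPM in wild type at 48 h. In the deletion strain 7 of 7 were lower than in wild type, where 39.8% of tested genes were. Their median log2 change was -2.27, a smaller fall than that of the sums. In the overexpression strain at 48 h, 5 of 7 were higher than in wild type, where 23.0% of tested genes were. The other 2 were not called, and the median log2 change of the 7 was 1.0. The sexual development regulator nsdD (AN3152) stood at 323 and 312 CPM in the deletion strain, at 193 and 150 CPM in the overexpression strain and at 118 and 118 CPM in wild type at the late harvest. None of these 8 markers was at 0 in any library. Their part in the levels of the dba genes was not tested.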

How the data were processed

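The authors deposited whole-number read counts per gene, 1 column per library, and log2 RPKM columns, 1 per group. Trimmomatic, BWA, HTSeq, limma and edgeR are the tools named in the submitters' processing notes, while versions, genome build and strandedness are not given in the sources used here. How the deposited log2 RPKM values combine cultures is not stated, so they served only to rank members. Their log base was read from their slope against log2 counts (0.922 over 5792 genes).

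Of 10727 entries, 15 repeated identifiers and 31 upstream open reading frames were left out. Counts of 10681 genes entered 1 edgeR 4.0.16 quasi-likelihood fit (R 4.3.3) over 12 libraries in 6 groups. Scaling was TMM, and filterByExpr kept 9670 genes. The biological coefficient of variation was 8.2%, with 6 residual and 7.73 prior degrees of freedom. Duplicate cultures differed beyond counting error (chi-square per degree of freedom 10 to 47.3), so each counted as a sample. The SE was derived as |log2 change|/√F, and it can be too small where counts are few. CPM uses TMM-scaled library sizes. A group without counts was set at 3 counts over the group, and groups with 1 to 3 counts got a count ratio with its 95% counting interval. Shares have exact Clopper-Pearson intervals. Reads are not independent molecules, so all of these cover counting error only.

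The members, gene lists and tests were chosen with earlier results of these data known. Named genes are all 10 members, AN7572, up to 3 called genes of a list with the largest change plus any member a count of 5 or fewer rests on, and the 5 genes whose log2 CPM (prior count 1) had the highest Pearson r with the members' standardised mean. Some of these are left out for length. Symbols and gene order come from the RefSeq gene table of assembly ASM1142v1, which matched 9970 of 10681 genes and gives no symbol for any member. A listed sexual development marker, AN7950, carries another symbol there than the one intended and is not described. How reads of near-identical genes were split is not known.

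Tried as alternatives were DESeq2 1.42.0, limma-voom (limma 3.58.1), RLE and upper-quartile scaling, other filters, other thresholds, only the groups compared, a replicate block and each library left out. On simulated data for the deletion at 54 h against wild type at 48 h (9443 genes), the edgeR steps recovered 36 of 50 genes with a simulated log2 change of 0.5 and 50 of 50 with 1, 2 or 4, with 18 unchanged genes called. Recovery was not split by count level, so these numbers do not speak for the low dba counts outside the late deletion cultures. Each size was given to 50 genes only, while 40.2% of tested genes were called higher and 39.8% lower in the measured comparison.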

Additional observations from a re-analysis of the deposited data

Results flagged for a closer look

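The late-minus-early change differed between the deletion strain and wild type for all 10 dba genes, by a test of the difference itself (edgeR, adjusted p under 0.05). The differences on the log2 scale were 8.01 for AN7894, 10.71 for AN7895, 7.41 for AN7896, 6.13 for AN7897, 8.77 for AN7898, 8.50 for AN7899, 7.18 for AN7900, 7.09 for AN7901, 6.01 for AN7902 and 6.94 for AN7903. Wild type at 17 h held 2 to 4 counts of AN7897, AN7902 and AN7903, and their calls rest on them. The call was lost for AN7897 (2.20, adjusted p = 0.935) and AN7902 (adjusted p = 0.102) once wild-type replicate 1 at 17 h was left out, and for AN7902 (adjusted p = 0.118) and AN7903 (adjusted p = 0.0508) once wild-type replicate 2 at 17 h was.

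The same difference was tested between the overexpression strain and wild type, and 9 of 10 genes passed. It was -1.37 for AN7894, -3.11 for AN7895, -2.84 for AN7896, -5.51 for AN7897, -4.67 for AN7899, -5.69 for AN7900, -2.23 for AN7901, -7.52 for AN7902 and -5.78 for AN7903. Fitted values of genes with 3 counts or fewer in a group depend on the prior count and are no bounds. Leaving out 1 library ended the call of AN7894 (adjusted p = 0.071, without overexpression replicate 1 at 48 h), AN7897 (0.122) and AN7901 (0.127, both without overexpression replicate 2 at 17 h), and AN7899 (0.0542, without overexpression replicate 1 at 48 h). AN7900 lost its call in 5 such fits (adjusted p up to 0.158, without overexpression replicate 2 at 17 h) and AN7903 in 4 (up to 0.365, without overexpression replicate 1 at 17 h). AN7895, AN7896 and AN7902 stayed called in all 12. With wild-type replicate 2 at 48 h left out, AN7898 was called too (adjusted p = 0.0498).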

How the results depend on the processing

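The 10 higher dba genes of the deletion strain at 54 h and the 10 lower ones of the overexpression strain at 48 h kept their number under every scaling, tool and filter tried. At an adjusted p under 0.01 they numbered 10 and 9, and with 1 library left out 10 and 8 to 10. For single genes, 1783 of 1812 values kept their side of the threshold, 24 lost the call and 5 gained it, and no called value changed direction. Among dba counts, the deletion at 17 h gave 0 to 1 higher with 1 library left out, overexpression at 17 h gave 2 with only the groups compared (AN7895 added, adjusted p = 0.041), overexpression at 48 h against 17 h gave 3 lower in that fit, and the overexpression difference in late-minus-early change gave 4 lower at an adjusted p under 0.01 and 5 to 10 with 1 library left out. Without overexpression replicate 1 at 48 h that count was 5. The cause of these shifts was not tested. The replicate numbers do not pair the cultures (correlations of deviations -0.18 to 0.13). With a replicate block the calls were 10 higher for the deletion at the late harvest, 10 lower for overexpression there, 6 lower for overexpression over time and 4 higher and 2 lower for wild type over time, as without it, and crossed numbering, added after the data were seen, gave 10 for the deletion at the late harvest and the same counts for overexpression and wild type over time. RLE and upper-quartile scaling moved the median of all genes between harvests by 0.111 and 0.194 in wild type, 0.093 and 0.162 in the deletion strain and 0.143 and 0.204 in the overexpression strain, and no dba call changed. With prior count 5, 3 of the 5 most like genes were the same, and 193 genes outside the cluster, against 98, reached r = 0.95.

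Counts over all genes moved more. For the deletion at 17 h, DESeq2 called 191 lower, against 126, an adjusted p under 0.01 left 7 higher and 35 lower, a log2 change of at least 1 left 2 and 32, and leaving out 1 library gave 1 to 34 and 13 to 158. For overexpression at 17 h these were 840 and 903, 457 and 343, and 837 to 1463 and 886 to 1507. For the deletion at the late harvest a log2 change of at least 1 left 2327 higher and 1744 lower. For overexpression at 48 h it left 503 and 588, the stricter p 1416 higher, and 1 library left out gave 1436 to 2266 higher. Over time, a log2 change of at least 1 left 1946 lower in the deletion strain, 2387 higher and 2531 lower in the overexpression strain and 2620 lower in wild type. For the differences in that change it left 2171 and 1514 (deletion) and 461 and 727 (overexpression), with 734 higher for overexpression at the stricter p. Few counts limit the late overexpression values, where the 10 genes held 96 and 59 counts together, and the 17 h values of AN7897, AN7898, AN7902 and AN7903.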
